A study of Mus musculus with 6 samples.

Results

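The cytosolic ribosomal protein genes are described here in splenic B-cells of 3 genotypes, at rest and after lipopolysaccharide (LPS). They were taken by name from the table of gene counts: Rpl or Rps followed by a number and an optional a, l or x, together with Rplp0, Rplp1, Rplp2 and Rpsa. The rule found 79 genes of 46963 gene names, 30 for proteins of the small (40S) subunit and 49 for proteins of the large (60S) subunit. No measured value entered the choice.

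The study asked how the 2 enhancers at the ends of the immunoglobulin heavy chain (IgH) locus, Eμ and the 3′ regulatory region (3′RR), act on IgH transcription during class switch recombination. CD43- splenic B-cells were taken from wt mice and from mice without Eμ (Eμ-deficient) or without the 3′RR (3′RR-deficient), which the study's methods describe as male and female animals of 129 background aged 8 to 12 weeks. There was 1 library per genotype and state, made after removal of ribosomal RNA, from cells of 2 mice pooled per the labels. Non-stimulated cells (called resting below) are labelled as cultured for 2 days in medium alone, although the study's text presents resting cells as taken without stimulation. LPS cells were cultured for 2 days with LPS, at 5 µg/ml in the sample descriptions and in milligrams in the protocol text. Both deletions are germline and act in every cell of the animal, the Eμ model lacks the core enhancer with its flanking matrix attachment regions, and neither deleted element has a row of its own in the table, so the genotypes were not checked by these counts.

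A ribosome is built from ribosomal RNA and one copy of nearly every ribosomal protein, the exception being the stalk proteins P1 and P2, which are present in more than one copy. The messenger RNAs of ribosomal proteins begin with a C followed by a run of pyrimidines, the terminal oligopyrimidine (TOP) motif, through which mTOR and Larp1 adjust their translation to growth conditions. B-cells that receive LPS leave the resting state, grow, divide and secrete antibody, and ribosome production is part of that growth.

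RefSeq start windows (GRCm38.p6) were found for 59 members. A TOP start, here a C at the annotated start followed by at least 4 further pyrimidines, was present in 13 of them (22.0%), against 3.01% of all 27025 genes with a window. The rule depends on the annotated start, so this is not the share of members whose messages carry the motif. In Rpl7a and Rps9, for example, a pyrimidine run lies across the annotated start without meeting the rule. The letters CCGGAAG, a core recognised by ETS factors such as GABP, lay on either strand of the window from 250 bases before to 50 bases after the start in 40.7% of the members and 9.93% of all genes. The E-box CACGTG, which reads the same on both strands, was in 10.2% and 8.09%. Windows of 30 bases around the start, from 10 before to 20 from the start onwards, are shown for 7 of these members as examples, with the C and its pyrimidine run in capitals. They show how the run varies in length among members.
Rpl15 (chr14:18270967-18270996, minus strand): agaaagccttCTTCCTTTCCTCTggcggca
Rpl28 (chr7:4792955-4792984, plus strand): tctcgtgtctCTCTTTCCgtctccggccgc
Rpl38 (chr11:114668570-114668599, plus strand): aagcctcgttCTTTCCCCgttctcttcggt
Rplp2 (chr7:141447641-141447670, plus strand): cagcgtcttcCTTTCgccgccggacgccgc
Rps6 (chr4:86857348-86857377, minus strand): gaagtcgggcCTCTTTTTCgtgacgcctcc
Rps21 (chr2:180257369-180257398, plus strand): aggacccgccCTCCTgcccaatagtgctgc
Rps27 (chr3:90213629-90213658, minus strand): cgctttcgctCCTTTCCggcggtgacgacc

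Ribosomal protein genes have many processed pseudogenes, intronless copies of their messenger RNA elsewhere in the genome, and reads that map to several places were counted in these data. Matching of GENCODE M21 transcripts (GRCm38) found 485 annotated copies of 72 members, with at least 95% identity over at least 150 bases. The pairs below are shown as examples of a member and an abundant copy whose counts differed between genotypes. Each line gives 60 bases of the coding sequence as aligned between the member and its copy, with the positions at which they differ in capitals.
Rpl29 (chr9:106429454-106431568, plus strand): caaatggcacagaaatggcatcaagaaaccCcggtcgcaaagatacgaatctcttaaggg
Gm13841 (chr5:115801677-115802159, minus strand): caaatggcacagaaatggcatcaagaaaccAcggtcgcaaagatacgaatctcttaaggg
Rplp0 (chr5:115559467-115563727, plus strand): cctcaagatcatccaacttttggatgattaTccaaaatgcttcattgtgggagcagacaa
Gm8730 (chr8:102864845-102865798, minus strand): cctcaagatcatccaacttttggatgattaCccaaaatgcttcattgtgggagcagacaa
Rpl34 (chr3:130726831-130730398, minus strand): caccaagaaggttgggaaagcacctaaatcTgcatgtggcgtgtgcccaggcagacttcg
Rpl34-ps1 (chr6:71124610-71124963, plus strand): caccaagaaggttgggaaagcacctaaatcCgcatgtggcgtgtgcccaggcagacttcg
Rps13 (chr7:116331505-116334195, minus strand): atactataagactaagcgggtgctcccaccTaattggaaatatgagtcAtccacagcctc
Rps13-ps1 (chr8:87047689-87048226, plus strand): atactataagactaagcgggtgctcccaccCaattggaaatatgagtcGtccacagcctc
Over the whole aligned length, Gm13841 differs from Rpl29 at 3 of 483 bases, Gm8730 from Rplp0 at 12 of 954, Rpl34-ps1 from Rpl34 at 2 of 354 and Rps13-ps1 from Rps13 at 2 of 522. Rpl15-ps3 and Rpl15 are the same at all 615 aligned bases.

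The libraries held 9111974 to 21998587 counts on genes, and spike-in RNAs added to the samples took 4.75% to 7.10% of all counts. All 6 B-cell markers were detected, with a summed level of 1968 to 3040.0 CPM (counts per 1000000 counts of the scaled library) in resting and 1689.8 to 2017 CPM in LPS libraries. Plasma cell markers summed to 547, 2235 and 592 CPM at rest and 582, 1591 and 892 CPM after LPS in wt, Eμ-deficient and 3′RR-deficient cells. Erythroid markers summed to 3359 CPM in wt, 20169.7 CPM in Eμ-deficient and 3869 CPM in 3′RR-deficient resting cells, and to 53.2, 671 and 134 CPM after LPS; all 7 were lower in every LPS library. The summed level of the 3 cycling markers was 85.8, 213 and 148 CPM at rest and 1196, 1160.3 and 1146 CPM after LPS. T-cell, NK cell and myeloid markers summed to 4.13 to 317 CPM at rest and to at most 25.1 CPM after LPS. The part of these shifts in the results below was not tested, and in bulk RNA fewer cells of a type and less RNA per cell cannot be told apart.

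Of the 79 members, 77 passed the filter of at least 10 counts in at least 2 libraries. Rpl10l, a testis paralogue of Rpl10, had no count in any library, and Rpl3l, the muscle paralogue of Rpl3, had at most 2. Rpl39l, a paralogue of Rpl39 known from testis, passed with 2 to 11 counts. Rpl24 had 23 to 171 counts, and every other member at least 1041 in each library.

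Compared per length, as the mean CPM per kb of transcript over the 6 libraries, the highest levels were 6542 for Rps29, 5459 for Rps27, 5119 for Rps28, 4031 for Rplp1 and 3576 for Rpl38. These are short messages of 271 to 499 nt. Below Rpl39l (0.796 CPM per kb) and Rpl24 (7.86), which stood apart from the rest, the next level up was that of Rps20 (197). The length used for Rps20, 3706 nt, is that of its single annotated coding transcript and is the longest of the members, whose median was 681 nt. Another gene, Gm28037, overlaps Rpl24 on the same strand and was listed at 0, so the low value of Rpl24 is uncertain. Neighbours in the order of levels overlapped in their range over the libraries almost everywhere, as the plot of levels per transcript length shows.

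**Figure D1:**
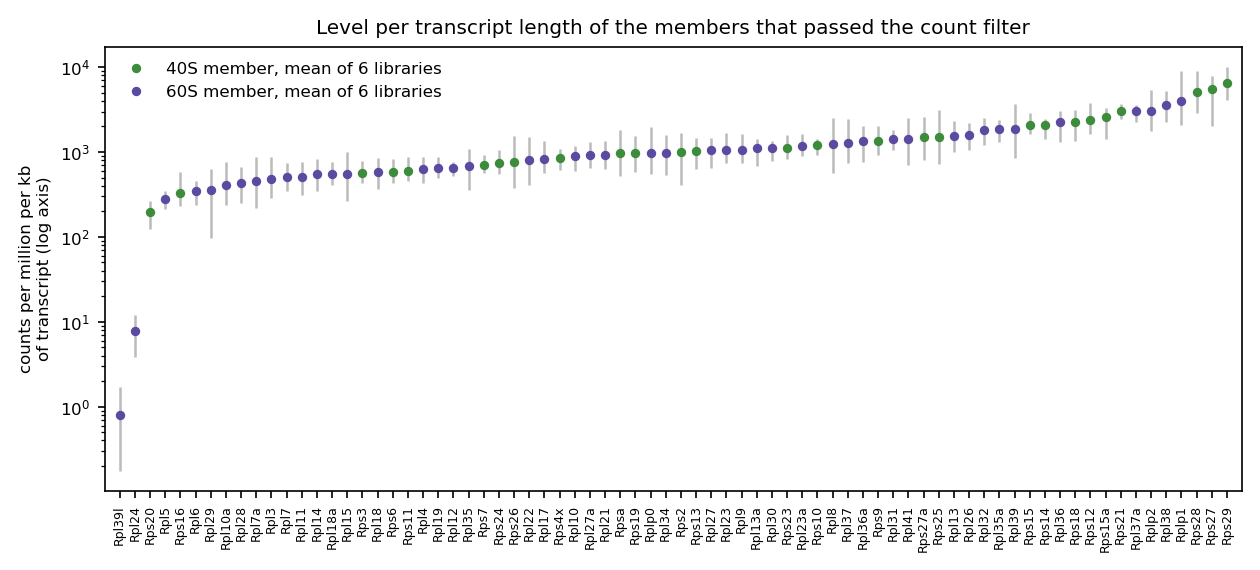
Level of 74 of the 77 members that passed the filter, in CPM per kb of transcript on a log axis, ordered by their mean. Points are means of the 6 libraries, coloured by subunit, and grey lines run from the lowest to the highest library; all but Rpl39l and Rpl24 have means of at least 197.

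At rest, the members together took 5.12% of gene counts in wt, 5.02% in Eμ-deficient and 5.50% in 3′RR-deficient cells. After LPS they took 8.01%, 7.31% and 8.07%, so the lowest LPS library lay above the highest resting library. As a share of counts on protein-coding genes, the values were 9.67%, 10.8% and 11.5% at rest and 14.9%, 13.8% and 14.1% after LPS. The 95% Clopper-Pearson intervals of the shares of gene counts were at most 0.035 percentage points wide, and they cover counting error only.

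After TMM scaling, which sets libraries to a common level for most genes, the summed level was 45409.5, 50946 and 55658 CPM at rest and 84293, 74955 and 82679.9 CPM after LPS, in the order wt, Eμ-deficient and 3′RR-deficient. The LPS to resting ratio was 1.86 in wt, 1.47 in Eμ-deficient and 1.48 in 3′RR-deficient cells. With 1 library per group these ratios have no test between mice. They depend on the scaling: with library sizes set by the spike-in RNAs, the log2 ratio in wt was 0.10 in place of 0.89, while it was 0.73 in place of 0.56 in Eμ-deficient cells. Both subunits went the same way, and the ratio of the 60S to the 40S sum stayed between 1.06 and 1.27 in the 6 libraries.

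**Figure D2:**
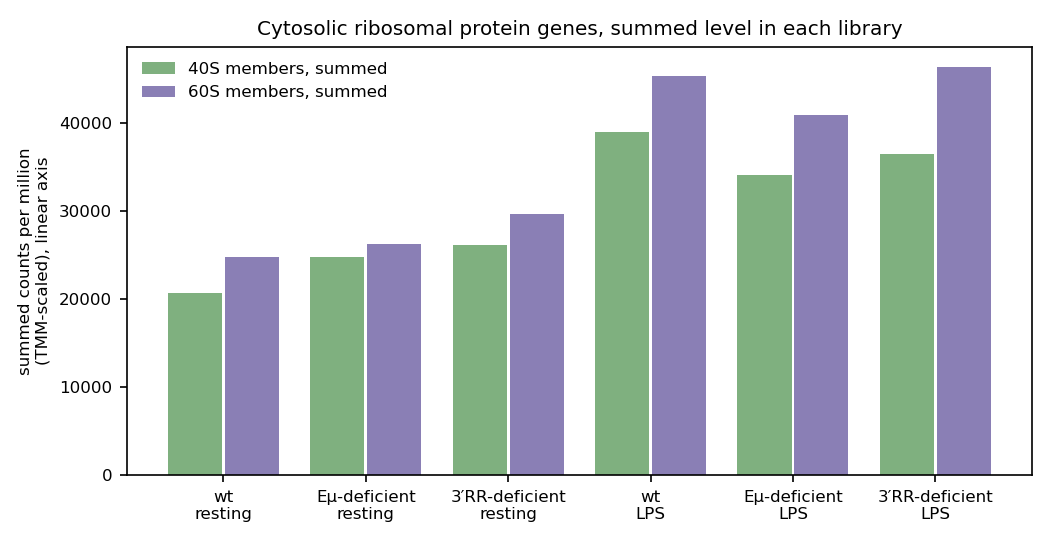
Summed TMM-scaled CPM of the 40S and 60S members in each library, with 1 bar per subunit and library and no error bars because each group is 1 library. The resting bars lie between 20654 and 29599, the LPS bars between 34048 and 46269.

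Across the 3 genotypes, LPS against resting, 26 of the 77 members rose and none fell (edgeR quasi-likelihood test with genotype as a term, Benjamini-Hochberg adjusted p under 0.05 over all 14600 genes tested). Of all genes tested, 19.7% rose and 21.1% fell, so the members were called higher at 33.8% and lower at 0%. At an unadjusted p under 0.05, 40 members were higher and 0 lower, beside 3496 and 3847 of the 14600 genes. DESeq2 called 41 higher (53.2%, against 19.6% of all genes) and 0 lower. The median log2 fold change was 0.66 over the members and -0.07 over all genes, and 75 of 77 were above 0. In 51 members every LPS library lay above every resting library, as did 25% of all genes, and the reverse held for 0 members and 27.3% of all genes. In addition, 63 members were higher after LPS in all 3 genotypes, as were 31.6% of all genes. The count of calls and its excess over all genes rested on single libraries and on the scaling. Without the Eμ-deficient resting library 1 member was called higher (1.3%, against 13.1% of all genes), and without the Eμ-deficient LPS library 2 (2.63% against 13.2%). Without the 3′RR-deficient resting library 8 were called higher (10.4% against 15.9%), and without the 3′RR-deficient LPS library 10 (13% against 15.8%). With spike-in scaling 2 were called higher (2.6% against 9.96%), so under these settings the members were called less often than all genes were. The excess was kept when a wt library was left out. Without wt resting 35 were higher (45.5% against 24.2%), and without wt LPS 35 (46.1% against 23.5%). Each of these fits also called 2 members lower (2.6% against 22.4% and 2.63% against 23.5%). The median stayed between 0.58 and 0.73 over the libraries left out, each of which leaves 1 residual degree of freedom.

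**Figure D3:**
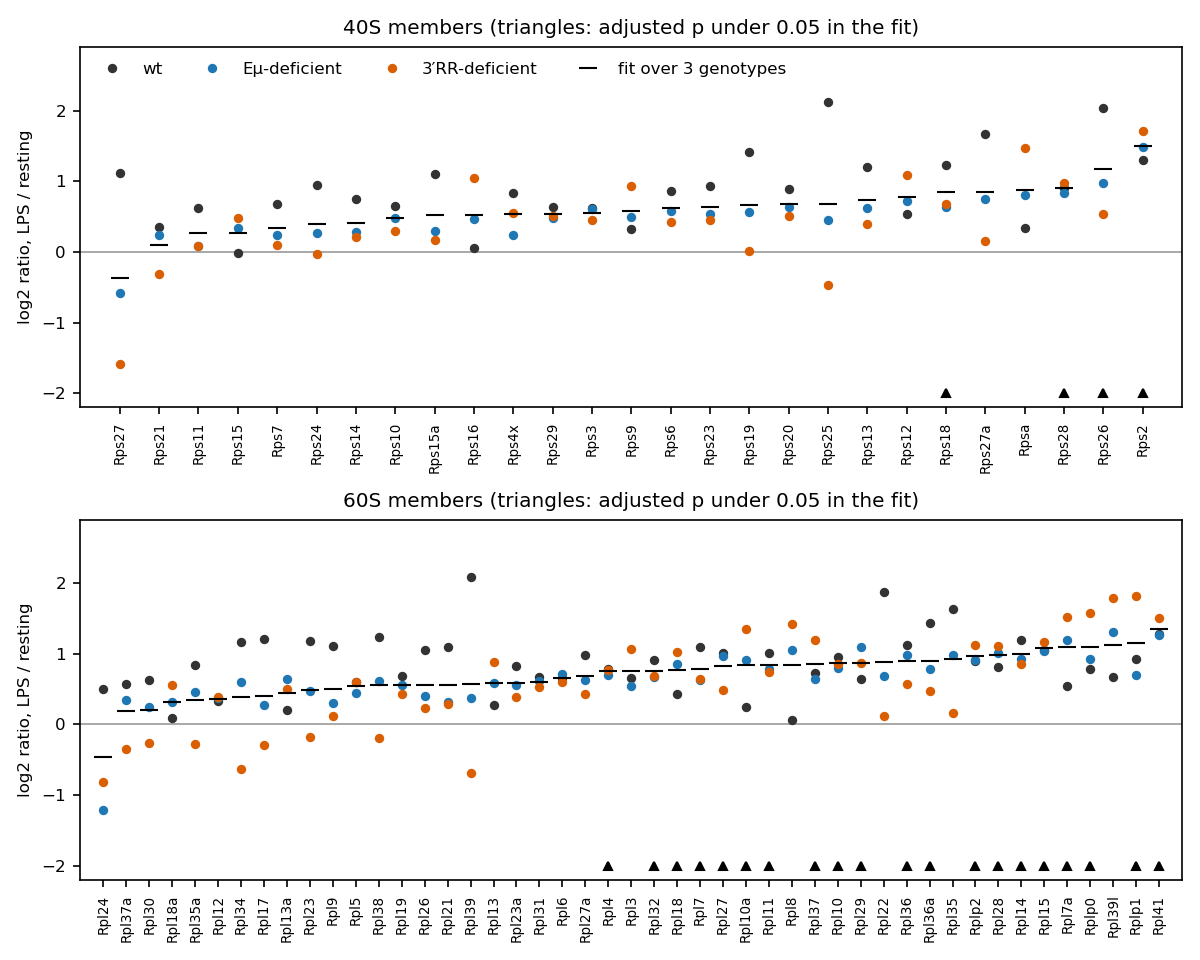
Log2 ratio of LPS to resting for each member, with 1 point per genotype and a dash for the value fitted over the 3 genotypes, for the 40S (top) and 60S (bottom) members; 74 of the 77 tested members are drawn, and triangles mark the 24 of these with an adjusted p under 0.05. Fitted values run from -0.46 for Rpl24 to 1.50 for Rps2, and the 3′RR-deficient point lies below 0 for 13 members.

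In the small subunit, 6 of 30 members rose (20%, against 19.7% of all genes), with a median log2 fold change of 0.60. Rps2 (uS5), a protein of the messenger RNA entry channel, had the largest change. Its level was 648, 408 and 505 CPM at rest and 1604, 1141 and 1650 CPM after LPS, so the states did not overlap, and its log2 fold change was 1.50 ± 0.28 (SE, adjusted p = 0.00286). Rps26, a protein at the messenger RNA exit side, rose by 1.18 ± 0.34 on the log2 scale (adjusted p = 0.0218), from 255, 332 and 348 CPM to 1043, 651 and 507 CPM. Rps28 and Rps18 also rose.

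Other 40S proteins missed the threshold, and for the next 4 the states did not overlap. Rps6, the substrate of the S6 kinases downstream of mTOR, measured 400, 382 and 428 CPM at rest and 726, 568 and 573 CPM after LPS (log2 fold change 0.62 ± 0.26, adjusted p = 0.0872). Rpsa, also known as the laminin receptor, gave 0.87 ± 0.32 (adjusted p = 0.0538). Rps3, which lies at the entry channel, gave 0.56 ± 0.27 (adjusted p = 0.124), and Rps27a, made as a fusion with ubiquitin, gave 0.85 ± 0.34 (adjusted p = 0.0737). For Rps19, the gene most often mutated in Diamond-Blackfan anaemia, the value was 0.66 ± 0.33 (adjusted p = 0.131). Its 3′RR-deficient libraries were nearly level, at 502 and 509 CPM, and its states overlapped.

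In the large subunit, 20 of 47 tested members rose (42.6%, against 19.7% of all genes), with a median log2 fold change of 0.75. Whether the subunits differed was not tested. The 3 stalk genes rose: Rplp0, the stalk base, by 1.10 ± 0.30 (adjusted p = 0.0169), Rplp1 by 1.15 ± 0.33 (adjusted p = 0.0208) and Rplp2 by 0.98 ± 0.27 (adjusted p = 0.0194). Rplp1 measured 1040.3, 1251 and 1273 CPM at rest and 1982, 2028 and 4496 CPM after LPS. The 3′RR-deficient LPS library stood highest of the 6 for each of the 3 stalk genes. Rpl41, the smallest ribosomal protein, rose by 1.35 ± 0.26 (adjusted p = 0.0038), from 309, 358 and 382 CPM to 753, 864 and 1085 CPM. Rpl15 rose by 1.09 ± 0.25 (adjusted p = 0.00897) and Rpl28 by 0.98 ± 0.25 (adjusted p = 0.0138).

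Rpl5 and Rpl11 join 5S ribosomal RNA in a particle that can also bind Mdm2. Rpl11 rose by 0.85 ± 0.26 (adjusted p = 0.0264), from 316, 261 and 336 CPM to 638, 449 and 564 CPM. Rpl5 gave 0.55 ± 0.26 (adjusted p = 0.117), with 468, 485 and 440 CPM at rest and 708, 661 and 665 CPM after LPS. Rpl4 rose by 0.75 ± 0.27 (adjusted p = 0.0486), and Rpl3, a protein near the peptidyl transferase centre, missed the threshold with 0.75 ± 0.27 (adjusted p = 0.0504). Rpl22, which is dispensable for translation but needed in lymphocyte development, gave 0.89 ± 0.36 (adjusted p = 0.0755). Its wt libraries went from 194 to 711 CPM and its 3′RR-deficient libraries from 247 to 268 CPM.

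In 14 members the 3 genotypes did not share a direction. The share of all genes without a shared direction was not counted. Rps27, a zinc finger protein of the 40S subunit, was one of them. It measured 1240 CPM at rest and 2682 CPM after LPS in wt, 2745 and 1834 CPM in Eμ-deficient cells, and 2100.3 and 697 CPM in 3′RR-deficient cells, so it was higher after LPS in wt and lower in both mutants. Rpl39 went from 525 to 2233 CPM in wt and from 929 to 576 CPM in 3′RR-deficient cells, and Rps25, a protein used by viral internal ribosome entry sites, from 419 to 1824 CPM and from 585 to 421 CPM. The fitted log2 fold changes were -0.37 ± 0.49 for Rps27, 0.58 ± 0.49 for Rpl39 and 0.69 ± 0.47 for Rps25, none past the threshold. At the low end, Rpl24 had -0.46 ± 0.39, Rps21 0.10 ± 0.29, Rpl37a 0.19 ± 0.30 and Rpl30 0.20 ± 0.29; with length-dependent trends between libraries removed, the last 3 were -0.21, -0.08 and -0.07.

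Libraries of every genotype departed from one another in values that reflect technical spread. The log2 ratios of 35 spike-in RNAs, which should share one ratio, had an SD of 0.78 for LPS against resting in wt, 0.63 in 3′RR-deficient and 0.13 in Eμ-deficient cells. Between the 3′RR-deficient and wt LPS libraries the SD was 1.27, compared with 0.16 between these genotypes at rest. For Eμ-deficient against wt the SD was 0.48 at rest and 0.44 after LPS. Spearman's rho between GC content and log2 ratio across all genes was -0.27 for LPS against resting in wt and 0.15 in 3′RR-deficient cells. For Eμ-deficient against wt, rho was -0.39 at rest and 0.25 after LPS. For 3′RR-deficient against wt after LPS, rho was 0.59 across 14082 genes and 0.45 across the 77 members, which is a description over genes of 2 libraries. Rps27, Rpl39 and Rps25 have transcripts of 50.7%, 48.7% and 45.2% GC, Rplp1 and Rpl8 of 57.3% and 58.0%. Their log2 ratios of 3′RR-deficient to wt after LPS were -1.94, -1.96, -2.11, 1.18 and 1.18 in that order. These members were named from near the ends of that ratio, and the median GC of the tested members was 51.8%. With the GC trend removed, the SD of this ratio over the 77 members was 0.70 in place of 0.77. With a GC trend removed in the fit, 48 members rose after LPS (62.3%, against 27.6% of all genes), and with a length trend removed 13 rose (16.9% against 22.5%). The part of library quality in these members was not tested.

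The members were also split by the features of their RefSeq start windows. With a TOP start, 5 of 13 rose after LPS, with a median log2 fold change of 0.62, and of the members whose windows lack it 14 of 44 rose, with a median of 0.66. With CCGGAAG 8 of 24 rose (median 0.68) and without it 11 of 33 (median 0.59). With CACGTG 1 of 6 rose (median 0.53) and without it 18 of 51 (median 0.68). The split is descriptive, and 19.7% of all genes were called higher after LPS. It goes by annotated starts, so the members without a TOP start can include some with a TOP motif. Among the windows printed above, Rpl15, Rpl28 and Rplp2 rose, and Rpl38, Rps6, Rps21 and Rps27 did not pass the test.

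Genes outside the rule that belong to the same machinery were read from lists. Fau, the eS30 precursor, is a ribosomal protein gene under another name and gave 0.04 ± 0.27. Of 16 elongation factors and other genes known for TOP messages, 8 rose and 0 fell, with a median of 0.71, where 19.7% of all genes rose and 21.1% fell. Npm1, a nucleolar chaperone of ribosome assembly, gave the largest of these, 2.12 ± 0.33 (adjusted p = 0.00123), while Eef1a1, the most abundant, gave 0.47 ± 0.31.

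Chaperones of single ribosomal proteins were mixed, with 4 of 8 higher and 0 lower, beside the 19.7% and 21.1% of all genes. Grwd1, which escorts Rpl3, rose by 1.31 ± 0.26 (adjusted p = 0.00413), and Heatr3, which serves Rpl5, by 1.02 ± 0.28 (adjusted p = 0.0164). Tsr2, the chaperone of Rps26, gave -0.28 ± 0.23. In the growth signalling list 2 of 11 rose (18.2%, against 19.7% of all genes), the translation repressor Eif4ebp1 (1.43 ± 0.33, adjusted p = 0.008) and Larp1 (0.91 ± 0.29, adjusted p = 0.0313). Mtor itself gave 0.12 ± 0.30.

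Mitochondrial ribosomal proteins, which serve the separate ribosome of mitochondria, were read beside the cytosolic members. Of 76 tested, 66 rose (86.8%, against 19.7% of all genes) and 0 fell, with a median log2 fold change of 1.23. The difference between the lists was not tested.

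Several members have an expressed paralogue of the same family. The share of the pair's counts on Rps27l, a p53-responsive paralogue of Rps27, was 1.33%, 1.36% and 1.10% at rest and 9.96%, 11.4% and 12.4% after LPS, with no overlap between the states. Rps27l itself rose by 2.94 ± 0.40 on the log2 scale (adjusted p = 0.000679), from 16.7, 37.7 and 23.4 CPM to 297, 237 and 98.4 CPM. Rpl36al, paralogue of Rpl36a, rose by 1.36 ± 0.31 (adjusted p = 0.008), and Rpl7l1, paralogue of Rpl7 with a role in ribosome assembly, by 0.98 ± 0.22 (adjusted p = 0.0074). Rpl22l1, which can stand in for Rpl22, had no common direction. Its share of the pair went from 24.0% to 31.1% in wt, from 36.9% to 22.0% in Eμ-deficient and from 25.7% to 13.9% in 3′RR-deficient cells.

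Between genotypes, 1 member was called in each comparison. In 3′RR-deficient against wt, with culture state as a term, 1 of 77 was higher and 0 lower, where 0.171% of all genes were higher and 0.507% lower (0.678% in either direction). In Eμ-deficient against wt, 1 was higher and 0 lower, where 0.911% were higher and 0.253% lower (1.16% in either direction). At an unadjusted p under 0.05, 2 members were higher and 1 lower for 3′RR-deficient cells, beside 427 and 404 of the 14600 genes. For Eμ-deficient cells 1 was higher and 0 lower, beside 985 and 282 of all genes. DESeq2 also called 1 higher and 0 lower in each, where 0.384% of all genes were higher for 3′RR-deficient and 1.9% for Eμ-deficient cells. The 2 comparisons share the wt libraries. The medians over the members were 0.01 and -0.02, and 0.04 and -0.01 over all genes.

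The called member was Rpl29 in both. It had 1041 and 1874 counts in wt (resting, LPS), 2301 and 3967 in Eμ-deficient cells, and 4120 and 3270 in 3′RR-deficient cells. That is 57.3 and 89.7 CPM in wt against 174 to 372 CPM in the mutants, with no overlap. The log2 fold change was 1.92 ± 0.31 for 3′RR-deficient (adjusted p = 0.0298) and 1.83 ± 0.31 for Eμ-deficient against wt (adjusted p = 0.0284). The call for Eμ-deficient cells was lost without either Eμ-deficient library, with total counts as library size and with spike-in scaling, and the call for 3′RR-deficient cells without either 3′RR-deficient library. Both calls ended when the counts of the annotated copies were added to each member: Rpl29 with its 24 copies gave 0.19 (adjusted p = 0.933) and 0.04 (adjusted p = 0.999), and 0 members were called in either comparison.

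The counts of the copies lay mostly on Gm13841. This copy had 1742 and 5080 counts in wt, 10 and 17 in Eμ-deficient, and 9 and 9 in 3′RR-deficient cells. Gm8210, another copy of Rpl29, had 376 and 646 counts in wt and at most 1 in each mutant library. Copies held 69.1% and 76.0% of the summed counts of Rpl29 and its copies in wt, and 5.50% to 14.0% in the mutants. Summed, the family measured 186, 184 and 213 CPM at rest and 374, 397 and 428 CPM after LPS, so the genotypes lay close together within each state.

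Other members also had copies whose counts differed strongly between genotypes. Of 180 copies that passed the filter, 18 (10%) differed at least 8-fold between their highest and lowest genotype in both states with the same genotype at the top or at the bottom, against 0.877% of all genes and 0 members. These 18 belong to 11 members. The highest genotype in both states was wt for 7, Eμ-deficient for 5 and 3′RR-deficient for 0, and the lowest in both was 3′RR-deficient for 11. The criterion was set after the values were seen. Whether the mice of the 3 genotypes differ in sequence at these copies, which could move reads between a member and its copies, was not tested. In the fit, 17 of the 180 copies were lower (9.44%, against 0.507% of all genes) and 2 higher (1.11% against 0.171%) in 3′RR-deficient cells. In Eμ-deficient cells 8 were lower (4.44% against 0.253%) and 3 higher (1.67% against 0.911%).

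The 3 copies of Rplp0 were abundant in wt. Gm8730 had 3250 and 4299 counts there, compared with 54 and 57 in Eμ-deficient and 73 and 87 in 3′RR-deficient cells. Gm14165 had 579 and 2163 counts in wt and at most 7 in the mutants. Copies held 22.3% and 20.3% of the Rplp0 family in wt and at most 0.69% in the mutants.

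For Rpl34 the 3′RR-deficient cells were the ones apart. Rpl34-ps1 had 4523 and 15538 counts in wt and 4911 and 5796 in Eμ-deficient cells, against 90 and 14 in 3′RR-deficient cells. Rpl34 had 4649 counts in wt, 4019 in Eμ-deficient and 15468 in 3′RR-deficient resting cells. Summed over the family, the resting levels were 533, 700.0 and 758 CPM. Rps13-ps1 had 659 and 2594 counts in wt, 1870 and 2347 in Eμ-deficient, and 59 and 26 in 3′RR-deficient cells, and Rps15a-ps6 had 767 and 3753, 1795 and 1775, and 48 and 12. Rpl3-ps2 had 469 and 655, 302 and 494, and 18 and 35 counts, so these 3 copies were lowest in 3′RR-deficient cells.

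For Rpl15, the copy Rpl15-ps3 went the other way. It had 567 and 1197 counts in wt, 988 and 1781 in Eμ-deficient, and 4253 and 3923 in 3′RR-deficient cells. In the latter it was called higher (log2 fold change 2.84, adjusted p = 0.00416). Another copy of Rpl15, Gm10020, had 358 and 468 counts in wt, 88 and 159 in Eμ-deficient, and 5 and 12 in 3′RR-deficient cells. Rpl15 alone had -0.79 ± 0.31 in 3′RR-deficient and -0.66 ± 0.31 in Eμ-deficient against wt. With the copies added the first became -0.01. Copies held 18.3% and 13.1% of the Rpl15 family in wt and 51.0% and 51.2% in 3′RR-deficient cells.

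**Figure D4:**
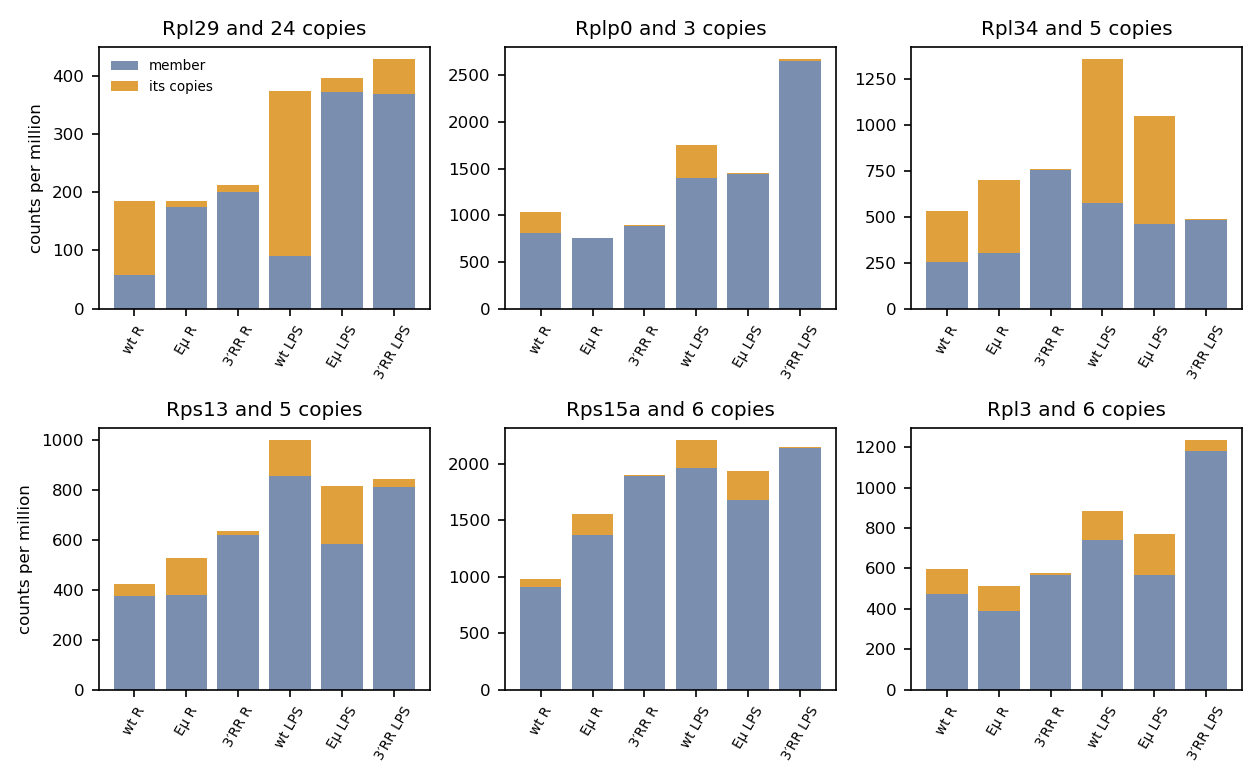
Level in CPM of 6 members (blue) and of their annotated copies (orange) stacked above them, in each library (R, resting). The share on copies of Rpl29 is 69.1% and 76.0% in wt and at most 14.0% in the mutants, and that of Rpl34 at most 0.74% in 3′RR-deficient cells and at least 52.0% elsewhere.

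Over the 70 tested members with a copy, adding the copies narrowed the spread of the genotype ratios. The SD of the log2 ratios fell from 0.44 to 0.41 for Eμ-deficient against wt at rest and from 0.41 to 0.31 for 3′RR-deficient against wt at rest. After LPS it fell from 0.36 to 0.23 and from 0.76 to 0.71. Rpl29 was the top member in each of these pairs, from 1.60 to 2.05. How much of the narrowing came from Rpl29 alone was not separated. The LPS to resting ratios within a genotype, in contrast, had SDs of 0.463 and 0.471 in wt, 0.313 and 0.315 in Eμ-deficient and 0.608 and 0.601 in 3′RR-deficient cells, without and with the copies. Copies held 3.63% to 6.41% of the summed counts of members and copies in a library, so the summed levels were little affected. For Rpl41 the annotated copy Gm10076 held 43.7% to 66.5% of the family's counts, and the LPS change with it was 1.35 ± 0.29. Rpl24 with its 2 copies gave an LPS change of 0.72 in place of -0.46. Whether its reads were placed correctly was not tested.

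Apart from Rpl29, no member passed the test between genotypes, and the smallest adjusted p among the others was 0.73 for 3′RR-deficient and 0.627 for Eμ-deficient against wt. Within a state, 52 members were above wt and 25 below in Eμ-deficient resting cells (median log2 ratio 0.18), and 56 and 21 in 3′RR-deficient resting cells (median 0.26). After LPS, 26 were above and 51 below in Eμ-deficient cells (median -0.19), and 30 and 47 in 3′RR-deficient cells (median -0.18). These ratios compare single libraries, and genes of one library are not independent. Rpl8 and Rpl13a lay lowest against wt in Eμ-deficient resting cells, at -0.94 and -0.73. Rps2 and Rpsa had fitted log2 fold changes of -0.58 ± 0.33 and -0.49 ± 0.38 in Eμ-deficient against wt.

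The members highest in 3′RR-deficient against wt after Rpl29 were Rpl37 (0.78 ± 0.34), Rplp1 (0.77 ± 0.39), Rps29 (0.72 ± 0.34) and Rps28 (0.72 ± 0.33). The lowest were Rpl39l (-1.10 ± 0.84), Rpl24 (-1.05 ± 0.47), Rps25 (-0.88 ± 0.57), Rpl15 and Rps27 (-0.65 ± 0.60). For Eμ-deficient cells, Rpl39l (0.55 ± 0.73), Rpl30 (0.33 ± 0.35), Rps20 (0.31 ± 0.32) and Rps21 (0.29 ± 0.35) followed Rpl29. None of these differences passed the adjusted test.

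**Figure D5:**
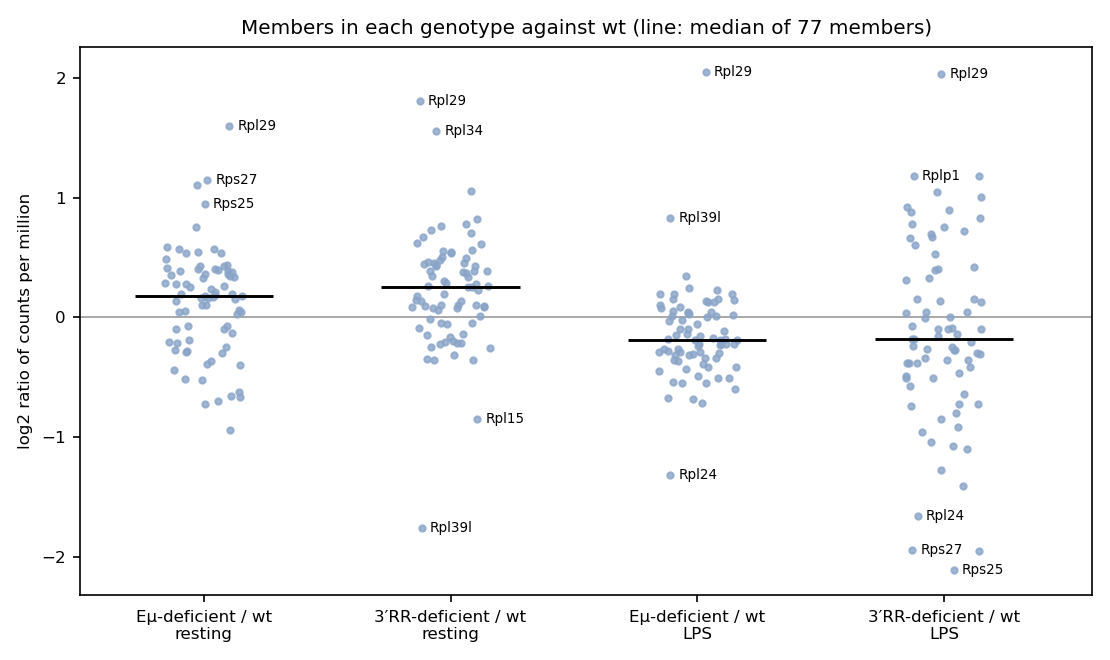
Log2 ratio to wt of each of the 77 members in the resting and LPS libraries of the mutants, with a line at the median. Rpl29 is the top member in each of the 4 pairs, from 1.60 to 2.05, and the 3′RR-deficient LPS pair spreads widest (SD 0.77, against 0.39 to 0.47 in the other pairs).

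At the wt extremes of the LPS response, Rps25 (2.12) and Rpl39 (2.09) lay farthest above the median log2 ratio of 0.86, and Rps15 (-0.02) farthest below. In Eμ-deficient cells Rps2 (1.48) and in 3′RR-deficient cells Rplp1 (1.82) lay highest among abundant members. Of the abundant members, Rps27 lay lowest in both mutants, at -0.58 and -1.59. The 4 tested X-linked members, among them Rpl10 and Rpl36a, had a median fitted LPS change of 0.72. Of these, 2 rose (50%, against 19.7% of all genes).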

How the data were processed

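RNA from CD43- splenic B-cells was sequenced as stranded, paired-end libraries. Per the labels, the submitters used STAR 2.4.0a on mm10 and featureCounts of Subread 1.4.6-p1, and the study's methods give Ensembl 77 genes with multi-mapping reads counted. The deposited counts are whole, unnormalized read numbers per gene name. A member and its pseudogenes can exchange such reads, so member counts are uncertain where copies exist.

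The 92 spike-in RNAs were left out of library sizes. edgeR 4.0.16 (TMM, quasi-likelihood test, terms for genotype and state, Benjamini-Hochberg) was run on the 14600 genes that reached 10 counts in 2 or more libraries; the model left 2 residual degrees of freedom. With 1 library per group, the residual measures departure from additivity, not spread between mice. SE is the log2 fold change divided by the root of F. Ratios of 2 libraries have exact conditional binomial 95% intervals that cover counting error only. Copies were found with blastn 2.17.0 among GENCODE M21 transcripts, covering at least 50% of the copy. Transcript lengths are those of the shortest principal coding transcript with a consensus coding sequence (CCDS). For genes without such a transcript, the longest of the best-annotated transcripts was taken. The TOP, E-box and CCGGAAG features were searched in RefSeq windows.

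Alternatives changed the scaling, the filter, the tool (DESeq2 1.42.0), GC and length trends, the handling of pseudogenes and the libraries used. The members and gene lists were chosen with earlier results of these data known. Genes named in the text were fixed by role, by the 5 highest and 5 lowest fold changes and the 5 smallest adjusted p among called members in each comparison, by the 5 highest and lowest levels per kb, and by the 2 members farthest above and below the median in each pair of libraries. Further members were named from a count of 3 or fewer, for their copies or for a shared direction, and copies were named after their values were seen. Some genes that these rules select are not reported here.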

Additional observations from a re-analysis of the deposited data

Results flagged for a closer look

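The summed level of the members against wt changed sign between the states in both mutants. In Eμ-deficient cells the log2 ratio to wt was 0.17 at rest and -0.17 after LPS, a difference of -0.34, and in 3′RR-deficient cells it was 0.29 and -0.03, a difference of -0.32. With 1 library per group these differences were not tested. The change of sign depends on the scaling: with total counts as library size the ratios were -0.030 and -0.13 for Eμ-deficient and 0.10 and 0.012 for 3′RR-deficient cells, and with spike-in scaling -0.65 and -0.020, and 0.049 and 0.52. Both differences share the wt libraries, so a shift in one wt library moves both.

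In 12 members the LPS to resting ratio pointed in opposite directions in different genotypes beyond counting error, which was not tested either. The same count was not made over all genes, so it cannot be called particular to the members. The range of the log2 ratio over the 3 genotypes was 2.78 for Rpl39, 2.70 for Rps27, 2.59 for Rps25, 1.80 for Rpl34, 1.71 for Rpl24, 1.51 for Rpl17, 1.43 for Rpl38, 1.36 for Rpl23, 1.12 for Rpl35a, 0.92 for Rpl37a, 0.89 for Rpl30 and 0.66 for Rps21. In each of them wt was higher after LPS and 3′RR-deficient cells were lower. With its copies added, Rpl34 still went from 533 to 1355 CPM in wt and from 758 to 487 CPM in 3′RR-deficient cells.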

How the results depend on the processing

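The median log2 fold change of the members after LPS was above 0 under every alternative run. The count of called members was 2 with spike-in library sizes (2.6%, against 9.96% of all genes called higher), 41 with DESeq2's Wald test (53.2% against 19.6%), 48 with a GC trend removed (62.3% against 27.6%) and 13 with a length trend removed (16.9% against 22.5%), where the analysis reported gave 26 (33.8% against 19.7%). The median log2 fold change was 0.46 with spike-ins and 0.48 with the length trend removed. Leaving out 1 library gave 1 to 37 called members for LPS, 0 to 7 for 3′RR-deficient and 0 to 4 for Eμ-deficient against wt, and medians of 0.58 to 0.73. The 37 arose without either wt library (35 higher and 2 lower). Without wt resting these were 45.5% and 2.6%, against 24.2% and 22.4% of all genes. Without wt LPS they were 46.1% and 2.63%, against 23.5% and 23.5%. The one call for 3′RR-deficient cells went to 0 with annotated copies added, and that for Eμ-deficient cells went to 0 with total counts, spike-ins or copies added. Adding the copies and using protein-coding counts as library size were chosen after seeing the data. The spike-in scaling moved the median of all genes from -0.07 to -0.28 for LPS, from 0.04 to 0.16 in the 3′RR-deficient comparison and from -0.01 to -0.36 in the Eμ-deficient one. The summed log2 ratios moved by more than their counting intervals under most settings, and they are given by pair of libraries. The ratio of Eμ-deficient to wt at rest was 0.17 as reported, and 0.18 with DESeq2 size factors, -0.030 with total counts, 0.16 with TMM without the members, -0.65 with spike-ins, 0.093 with the GC trend removed (median over members), -0.12 with the length trend removed (median over members), 0.17 with named pseudogenes added and 0.16 with protein-coding counts. The ratio of 3′RR-deficient to wt at rest was 0.29 as reported, and 0.29 with DESeq2 size factors, 0.10 with total counts, 0.29 with TMM without immunoglobulin genes, 0.049 with spike-ins, 0.18 with the GC trend removed (median over members), 0.20 with the length trend removed (median over members), 0.28 with named pseudogenes added, 0.27 with annotated copies added and 0.25 with protein-coding counts. The ratio of Eμ-deficient to wt after LPS was -0.17 as reported, and -0.22 with DESeq2 size factors, -0.13 with total counts, -0.16 with TMM without immunoglobulin genes, -0.020 with spike-ins, -0.32 with the GC trend removed (median over members), -0.26 with the length trend removed (median over members), -0.18 with annotated copies added and -0.11 with protein-coding counts. The ratio of 3′RR-deficient to wt after LPS was -0.028 as reported, and -0.038 with DESeq2 size factors, 0.012 with total counts, -0.034 with TMM without immunoglobulin genes, 0.52 with spike-ins, -0.34 with the GC trend removed (median over members), -0.033 with the length trend removed (median over members), -0.042 with named pseudogenes added, -0.062 with annotated copies added and -0.082 with protein-coding counts. The ratio of LPS to resting in wt was 0.89 as reported, and 0.92 with DESeq2 size factors, 0.64 with total counts, 0.90 with TMM without immunoglobulin genes, 0.099 with spike-ins, 1.06 with the GC trend removed (median over members), 0.57 with the length trend removed (median over members), 0.90 with named pseudogenes added, 0.91 with annotated copies added and 0.63 with protein-coding counts. The ratio of LPS to resting in Eμ-deficient cells was 0.56 as reported, and 0.52 with DESeq2 size factors, 0.54 with total counts, 0.57 with TMM without immunoglobulin genes, 0.56 with TMM without the members, 0.73 with spike-ins, 0.74 with the GC trend removed (median over members), 0.44 with the length trend removed (median over members), 0.57 with annotated copies added and 0.36 with protein-coding counts. The ratio of LPS to resting in 3′RR-deficient cells was 0.57 as reported, and 0.60 with DESeq2 size factors, 0.55 with total counts, 0.58 with TMM without immunoglobulin genes, 0.56 with the GC trend removed (median over members), 0.42 with the length trend removed (median over members), 0.58 with annotated copies added and 0.29 with protein-coding counts. Single members whose direction reversed were Rpl24 after LPS with annotated copies added (0.72), Rpl30 with spike-ins (-0.00749), the length trend removed (-0.072) and 1 library left out (from -0.0014 without wt LPS to 0.44), Rpl37a with spike-ins (-0.017) and the length trend removed (-0.080), Rps21 with spike-ins (-0.11), the length trend removed (-0.21) and 1 library left out (from -0.025 without wt LPS to 0.30), and Rps27 with 1 library left out (from -1.08 to 0.27, above 0 without either 3′RR-deficient library). In 3′RR-deficient against wt they were Rpl15 with named pseudogenes added (0.043), and Rps25 (from -1.86 to 0.26) and Rps27 (from -1.67 to 0.53) with 1 library left out, both above 0 without the wt LPS or the 3′RR-deficient LPS library. In Eμ-deficient against wt they were Rpl8 with 1 library left out (from -1.03 to 0.12, above 0 without wt resting) and Rps20 (-0.016) and Rps21 (-0.020) with spike-ins. None of these members was called in the comparison reported. No paired analysis was possible because the labels give no replicate numbers and each group is 1 library; the genotypes served as the block for LPS, and without that block 26 members were called as well.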

Other observations

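The copies went in the same direction as the members after LPS. They were chosen for sequence identity to members and multi-mapping reads were counted, so this is not independent of the members. How many of their reads came from members was not tested. Of the 180 annotated copies that passed the filter, 50 (27.8%) were called higher and 0 lower, where 19.7% of all genes were called higher, and their median log2 fold change was 0.82 against 0.66 for the members.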
